A study of Mus musculus with 9 samples.

Results

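Expression of 34 genes of the chemokine system, 27 named as chemokine ligands and 7 as chemokine receptors, was followed in mouse embryonic fibroblasts (MEFs) among the 19938 genes that the arrays measured. The genes were chosen by name from a fixed list of symbols, and each was read from a probe set annotated to that symbol alone. All 34 were measured, and for Ccl25, which alone had 2 such probe sets, the brighter one was used. MEFs of 3 genotypes were compared, with 3 Affymetrix Gene ST arrays each: a reference called wild-type in the labels (WT), a double mutant of the endoplasmic reticulum (ER) thiol oxidases ERO1α and ERO1β (DM), and a triple mutant that also lacks the ER peroxiredoxin PRDX4 (TM). In the study's methods the Ero1α genotype is m/+ in control cells and m/m in DM and TM cells, Ero1β is m/m in all of them, and Prdx4 is m/y in TM and +/+ in the others, so by that account the reference shares the Ero1β mutation and carries 1 mutated Ero1α allele. The labels describe cells of C57B/L6 background, transformed with T antigen, while the methods assign primary MEFs to the experiments that the array data accompany and immortalized MEFs to later ones, so these sources differ. Neither source ties the 3 arrays of a genotype to separate embryos or cultures. The p-values therefore describe the spread between arrays alone, which may be technical, and precision is limited by the number of arrays.

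The deposited values are log2 RMA values, in which a difference of 1 is a doubling, and the medians of the 9 arrays lay between 7.62 and 7.72. Ero1a had a mean log2 level of 11.86 in WT, 9.46 in DM and 9.06 in TM MEFs, and Prdx4 of 10.56, 10.68 and 6.30. Of 14 fibroblast markers 12 had a mean above the array median, whereas of 14 macrophage and leukocyte markers Cd68 and Cd14 did and Ptprc, Adgre1, Csf1r, Lyz2 and Itgam did not. DM MEFs stood apart in other genes as well: 8 of 14 epithelial and mesothelial markers were higher than in WT, among them Upk1b and Upk3b, 1 (Msln) was lower, and Xist, which marks an inactive X chromosome, was 12.56 against 5.70 in WT and 5.72 in TM MEFs. In every comparison with DM MEFs, the sex of the source embryos therefore cannot be told apart from the genotype. The methods write the X-linked Prdx4 as +/+ in both control and DM cells, yet the Xist level of WT was near that of TM MEFs.

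Chemokines are small secreted proteins that guide leukocytes and other cells along gradients, and they act through G protein-coupled receptors on the responding cell. They are grouped by the spacing of their first conserved cysteines into CC, CXC and CX3C families, and their fold depends on disulfide bonds formed in the ER. Atypical receptors bind chemokines without classical G protein signalling and clear or shape the gradients. Fibroblasts are known as a source of chemokines such as CCL2, CXCL1 and CXCL12, and many inflammatory chemokine genes are known targets of the transcription factor NF-kB.

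Promoter windows of 5 chemokine genes are shown because they hold matches to the NF-kB consensus while the genes themselves ran different courses on the arrays. Sequences are from RefSeq on GRCm38.p6 and end at the base before the annotated start site, and each is written in the direction of its gene. They cover chr1:83116636-83116765, chr5:90891115-90891244, chr5:90903769-90903898 and chr5:90785971-90786100 on the plus strand and chr5:92348890-92349109 on the minus strand. Capitals mark the NF-kB matches and, in Cxcl10, also an interferon response element (GAAA blocks 2 bases apart) as the first block and an AP-1 site (TGACTCA or its reverse complement TGAGTCA) as the last.
Ccl20: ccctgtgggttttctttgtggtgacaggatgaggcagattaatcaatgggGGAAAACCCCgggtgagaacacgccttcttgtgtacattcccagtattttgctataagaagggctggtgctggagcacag
Cxcl1: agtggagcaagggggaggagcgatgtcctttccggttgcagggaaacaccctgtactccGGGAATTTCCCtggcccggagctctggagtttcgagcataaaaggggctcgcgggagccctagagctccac
Cxcl2: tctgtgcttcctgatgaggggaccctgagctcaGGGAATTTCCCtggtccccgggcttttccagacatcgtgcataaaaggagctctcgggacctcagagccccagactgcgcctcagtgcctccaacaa
Cxcl3: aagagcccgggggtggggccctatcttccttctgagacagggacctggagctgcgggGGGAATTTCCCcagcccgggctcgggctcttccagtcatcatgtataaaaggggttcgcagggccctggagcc
Cxcl10: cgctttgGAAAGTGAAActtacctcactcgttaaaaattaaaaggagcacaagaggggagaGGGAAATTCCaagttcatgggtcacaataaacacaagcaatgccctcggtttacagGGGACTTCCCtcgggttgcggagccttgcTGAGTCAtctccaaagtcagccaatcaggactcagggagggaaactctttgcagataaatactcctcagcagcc

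The NF-kB consensus was searched on both strands and was present in 8 of the 26 members with a RefSeq promoter entry. These were Ccl9, Ccl20, Cxcl1, Cxcl2, Cxcl3, Cxcl10, Ackr2 and Ccrl2. Counted in the same way, by a match in any promoter of a gene, it was present in 5.14% of all 27025 genes with an entry. In Cxcl1, Cxcl2 and Cxcl3 a match on each strand overlaps the other, shifted by 1 base, and the first lies 71, 97 and 73 bases before the start site. That of Ccl20 lies 80 bases before the start, and those of Cxcl10 lie at 159 and 103 bases. The AP-1 site was present in Ccl28, Cxcl9 and Cxcl10 and in 5.95% of all genes with an entry. The interferon response element was present in Cxcl10 and Cxcl14 and in 3.99%, and TATAAA in 12 members and in 15.7%. The searched stretches ran past the start site, unlike the windows shown, and the AP-1 matches of Ccl28 and Cxcl9 lie after it. Apart from these paired matches the marked blocks do not overlap each other. Of the 8 genes with an NF-kB match, Ccl20, Cxcl1, Cxcl2 and Cxcl10 differed between genotypes and Ccl9, Cxcl3, Ackr2 and Ccrl2 passed the test in no comparison, so the genes with a match did not share 1 pattern. Of the 18 members with an entry but no match, 5 were called in at least 1 comparison. The other 8 members, Ccl2, Ccl4, Ccl5, Ccl7, Ccl11, Cxcl5, Cxcl11 and Cxcl16, had no promoter entry and could not be searched, and 6 of them were called. A match describes these letters and not a bound site.

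Genes counted as higher or lower where limma gave an adjusted p under 0.05 (Benjamini-Hochberg) and the change exceeded 1.5-fold. Against WT, 10 of the 34 genes were higher and 1 was lower in DM MEFs, where 5.28% of all genes were higher and 5.67% lower. In TM MEFs 10 were again higher and 1 lower, where 5.59% of all genes were higher and 3.56% lower. Between the mutants, 5 genes were higher and 4 lower in TM than in DM MEFs, beside 4.68% and 3.61% of all genes. As shares of the 34 genes, the higher calls came to 29.4%, 29.4% and 14.7% and the lower calls to 2.94%, 2.94% and 11.8%. The median log2 difference over the 34 genes was 0.17 in DM and 0.03 in TM MEFs against WT, beside 0.02 and -0.03 over all genes. Of the higher calls, 6 in DM and 5 in TM MEFs also exceeded 2-fold, and the others lay between 1.5-fold and 2-fold. The share of all genes over 2-fold was not read.

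All calls fell on ligands. Higher in both mutants were 7 genes named as ligands, Ccl20, Cxcl1, Cxcl2, Cxcl5, Cxcl11, Cxcl12 and Cxcl16. RefSeq lists Cxcl11 as a transcribed pseudogene. Against WT, Ccl2, Ccl17 and Cxcl15 were called in DM MEFs alone and Ccl3, Ccl7 and Cxcl14 in TM MEFs alone, while Ccl5 was lower in DM and Cxcl10 lower in TM MEFs. Of the 34 genes 19 were called in no comparison. The TM and DM comparisons against WT share the WT arrays.

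The genes were split by brightness, since a value under the array median may carry little signal from the transcript. With a mean over the 9 arrays above the median of all probe sets, 13 genes counted as bright: Ccl2, Ccl5, Ccl7, Ccl17, Ccl20, Ccl25, Cxcl1, Cxcl5, Cxcl10, Cxcl12, Cxcl14, Cxcl16 and Cx3cl1. Of these, 7 were higher and 1 lower in DM, where 7.51% of bright genes of all kinds were higher and 9.13% lower. In TM MEFs 7 were higher and 1 lower, beside 7.34% and 5.47% of bright genes. Between the mutants 4 bright members were higher and 3 lower in TM, beside 6.6% and 5.32%. Ccl20 and Cxcl16 were above the array median on none of the WT arrays and counted as bright through the mutants, so their calls are part of what made them bright and the counts are a description. The remaining 21 genes, all 7 receptors among them, were dim. Of these 3 were higher in each mutant against WT (14.3%, beside 2.48% of dim genes of all kinds in DM and 3.41% in TM), and Ccl3, Cxcl2, Cxcl11 and Cxcl15 were called in at least 1 comparison.

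**Figure D1:**
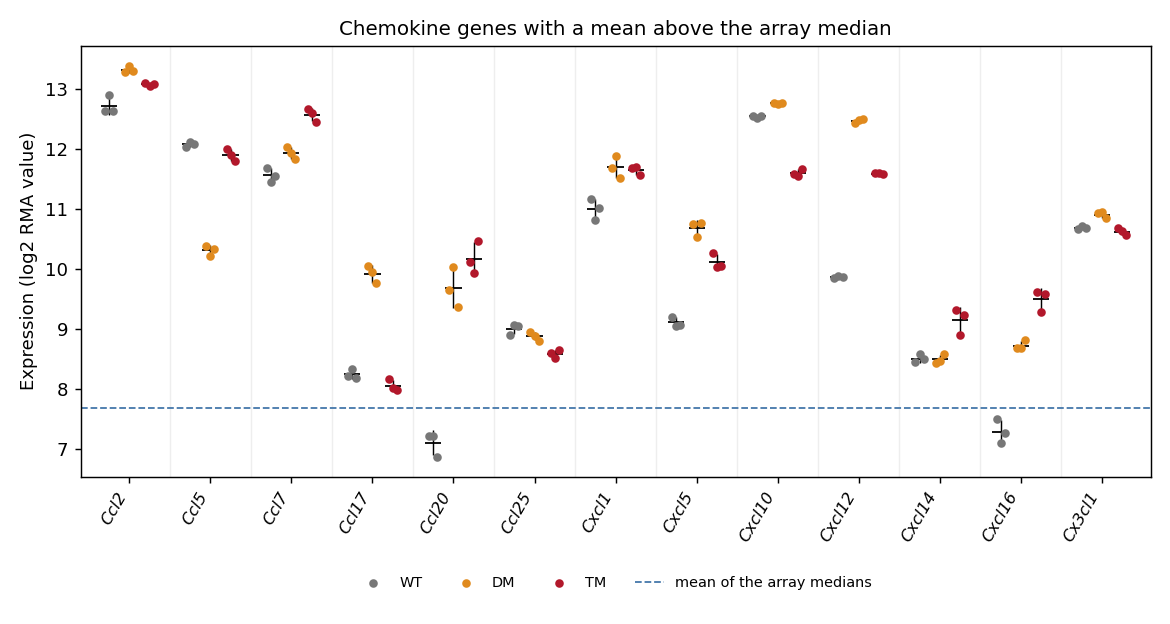
Log2 expression of the 13 chemokine genes with a mean above the array median by genotype, with WT in grey, DM in orange and TM in red. Each point is 1 array, a horizontal mark gives the mean and a vertical bar the SD (n = 3), and the dashed line is the mean of the 9 array medians. Ccl20 and Cxcl16 lie below the line in WT and above it in both mutants, Ccl5 is low in DM MEFs, Cxcl10 is low in TM MEFs and Ccl17 is high in DM MEFs.

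Cxcl12 encodes the stromal chemokine that holds haematopoietic and progenitor cells through CXCR4, and it was higher in both mutants. Its log2 levels were 9.86, 9.89 and 9.86 in WT, 12.43, 12.48 and 12.50 in DM and 11.60, 11.60 and 11.57 in TM MEFs. The 3 genotypes did not overlap, with WT lowest and DM highest. The log2 difference from WT was 2.60 in DM (SE 0.052, 6.07-fold, adjusted p = 1.23e-12 from limma) and 1.72 in TM MEFs (SE 0.052, 3.3-fold, adjusted p = 7.58e-11 from limma). TM MEFs were 1.84-fold below DM MEFs (log2 difference -0.88, adjusted p = 4.51e-08 from limma).

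Ccl20 encodes the CCR6 ligand that attracts dendritic cells and lymphocytes to epithelia, and it was higher in both mutants. On the log2 scale it read 7.22, 7.22 and 6.86 in WT, 9.65, 10.04 and 9.36 in DM and 10.12, 9.92 and 10.46 in TM MEFs. Every WT array was below its array median and every mutant array above it, while the DM and TM arrays overlapped. No detection call was analysed for values under the median, here or for other dim genes, so the folds are those of the array signal and not of a transcript shown to be present in WT. Against WT the difference was 2.58 in DM (SE 0.17, 5.99-fold, adjusted p = 9.48e-08 from limma) and 3.07 in TM MEFs (SE 0.17, 8.38-fold, adjusted p = 2.07e-08 from limma). The mutants differed by 0.48 (95% interval 0.12 to 0.85), which is under 1.5-fold, and this difference passed the fold limit without DM replicate 2 (0.66) or without TM replicate 2 (0.61).

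Cxcl16 encodes a membrane-anchored chemokine that is shed as a soluble ligand of CXCR6 and that also binds oxidized lipoprotein. Its levels were 7.50, 7.10 and 7.26 in WT, 8.68, 8.68 and 8.81 in DM and 9.62, 9.27 and 9.59 in TM MEFs. The genotypes were ordered WT, DM, TM without overlap, the reverse of the order of the mutants for Cxcl12. It rose by 1.43 in DM (SE 0.11, 2.7-fold, adjusted p = 3.7e-07 from limma) and by 2.20 in TM MEFs (SE 0.11, 4.6-fold, adjusted p = 6.45e-09 from limma), and TM exceeded DM by 0.77 (1.71-fold, adjusted p = 0.000122 from limma). Cx3cl1, the other membrane-anchored ligand of the list, kept to 10.67 to 10.71 in WT, 10.84 to 10.95 in DM and 10.56 to 10.68 in TM MEFs, with differences under 1.5-fold.

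The CXC ligands with an ELR motif, which attract neutrophils through CXCR2, were represented by Cxcl1, Cxcl2, Cxcl3, Cxcl5 and Cxcl15. Of the 5, 4 were higher in DM and 3 in TM MEFs against WT. Cxcl5 had log2 levels of 9.21, 9.05 and 9.07 in WT, 10.74, 10.53 and 10.77 in DM and 10.27, 10.03 and 10.04 in TM MEFs. All mutant arrays exceeded all WT arrays, and all DM arrays exceeded all TM arrays. The rise was 1.57 in DM (SE 0.085, 2.97-fold, adjusted p = 1.58e-08 from limma) and 1.01 in TM MEFs (SE 0.085, 2.01-fold, adjusted p = 1.23e-06 from limma). The mutants differed by -0.56, which is 1.48-fold and just short of the limit, and the difference passed it with quantile normalization (-0.59), with array weights (-0.60), without DM replicate 2 (-0.64) and without TM replicate 1 (-0.64).

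Cxcl1, which encodes the neutrophil attractant KC, read 11.16, 10.81 and 11.01 in WT, 11.68, 11.88 and 11.52 in DM and 11.68, 11.71 and 11.56 in TM MEFs. Both mutants lay above every WT array and overlapped each other. The differences from WT were 0.70 in DM (SE 0.10, 1.62-fold, adjusted p = 0.000134 from limma) and 0.65 in TM MEFs (SE 0.10, 1.57-fold, adjusted p = 0.00028 from limma), and that between the mutants was -0.05 (95% interval -0.27 to 0.18). Without WT replicate 2 the TM difference was 0.56 and under the fold limit. Cxcl2 was dim, with 6.14, 6.12 and 6.34 in WT, 6.73, 6.83 and 6.83 in DM and 6.97, 7.002 and 7.04 in TM MEFs. The 3 genotypes did not overlap, with WT lowest and TM highest, and every array was below its median. It differed from WT by 0.60 in DM (1.52-fold, adjusted p = 1.5e-05 from limma) and by 0.81 in TM MEFs (1.75-fold, adjusted p = 1.13e-06 from limma). The DM call was lost with median centring (0.53), quantile normalization (0.54), cyclic loess (0.55) and array weights (0.56), and without WT replicate 1 (0.57), WT replicate 2 (0.56), DM replicate 2 (0.58) or DM replicate 3 (0.58). Cxcl3, with the same marked promoter block as Cxcl1 and Cxcl2, stayed between 5.83 and 5.93 on all 9 arrays.

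Cxcl15 encodes lungkine, a neutrophil attractant described in lung epithelium, and it was higher in DM than in both other genotypes. Its levels were 5.36, 5.26 and 5.03 in WT, 7.62, 7.71 and 7.64 in DM and 4.86, 5.32 and 4.95 in TM MEFs. The DM arrays were separated from all others, and WT and TM arrays overlapped. Even in DM MEFs it did not exceed the array median, so its folds too are of array signal only. DM exceeded WT by 2.44 (SE 0.11, 5.43-fold, adjusted p = 3.27e-09 from limma), and TM MEFs were 6.13-fold below DM (log2 difference -2.62, adjusted p = 2.19e-09 from limma). TM against WT was -0.17 (95% interval -0.42 to 0.07).

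Ccl17, which encodes a CCR4 ligand for T cells, was also high in DM MEFs. Its log2 levels were 8.22, 8.33 and 8.18 in WT, 10.04, 9.95 and 9.76 in DM and 8.16, 8.02 and 7.98 in TM MEFs. The DM arrays alone were high, and the TM arrays lay just under those of WT. DM exceeded WT by 1.67 (SE 0.081, 3.19-fold, adjusted p = 5.52e-09 from limma), and TM MEFs were 3.63-fold below DM (log2 difference -1.86, adjusted p = 2.5e-09 from limma). Ccl22, whose protein binds the same receptor and whose gene lies beside Cx3cl1 and Ccl17 on chromosome 8, stayed between 6.45 and 6.78.

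Several epithelial and mesothelial markers were high in DM MEFs, as Ccl17 and Cxcl15 were. In TM MEFs Ccl17 and Cxcl15 were not called against WT, and the summed level of the marker list was below WT. Such a sum is weighted towards the brightest genes. Of the 14 markers 12 were not called in TM against WT, and the median log2 difference over all 14 was -0.09. The summed level of the list on the log2 scale was 12.48 to 12.55 in WT, 14.15 to 14.28 in DM and 11.14 to 11.25 in TM MEFs, and against WT 8 of the 14 were higher and 1 lower in DM and 2 were lower in TM MEFs. Upk1b, which encodes a uroplakin of urothelium and mesothelium, was higher by 5.57 in DM MEFs, Upk3b by 5.07, Lrrn4 by 4.12 and Wt1, the gene of a mesothelial transcription factor, by 4.05. Msln, which encodes mesothelin, went the other way, with log2 differences of -1.43 in DM and -3.61 in TM MEFs, and those of the keratin gene Krt19 were -0.40, not called, and -1.81. Between the mutants 10 of the 14 were lower in TM. Of 14 leukocyte markers 2 (Cd68 and Cd14) were bright and only Ly6g was called, lower with log2 differences of -2.63 in DM and -2.39 in TM MEFs, and their summed level was 11.12 to 11.17 in WT, 10.8 to 10.95 in DM and 10.92 to 10.98 in TM MEFs. The 14 fibroblast markers summed to 15.58 to 15.63 in WT, 15.68 to 15.69 in DM and 15.84 to 15.87 in TM MEFs, but single markers differed more: 3 were higher and 3 lower in DM, 6 were higher and 1 lower in TM against WT, and 8 were higher in TM than in DM. Pdgfra and S100a4 had log2 differences of -1.91 and -2.28 in DM MEFs, and Postn and Thy1 of 3.20 and 2.93 in TM MEFs. A change in the share of such cells and a change of expression within cells cannot be told apart in these bulk samples. The part of these marker lists in the levels of Ccl17, Cxcl15 and the other genes called in DM MEFs was not tested. Xist was high in DM MEFs alone, so what goes with it cannot be told apart from the DM genotype.

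**Figure D2:**
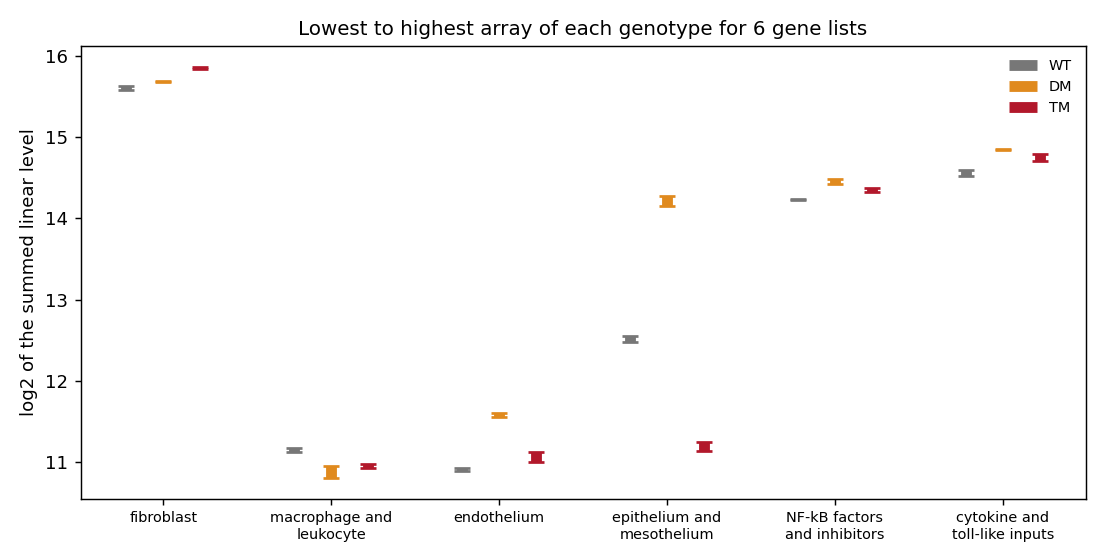
Summed level of 6 gene lists in WT (grey), DM (orange) and TM (red) MEFs, on a log2 scale after the linear values of the genes of a list were added up. Each bar runs from the lowest to the highest of 3 arrays of a genotype. The epithelial and mesothelial list is highest in DM MEFs, at 14.15 to 14.28. The macrophage and leukocyte list is at 11.12 to 11.17 in WT and lower in both mutants, where the ranges overlap, at 10.8 to 10.95 in DM and 10.92 to 10.98 in TM MEFs.

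Among the CC ligands of inflammation, Ccl5 was the only gene of the 34 that was lower in DM than in WT MEFs. Ccl5 encodes RANTES, which attracts T cells and monocytes. It read 12.03, 12.12 and 12.08 in WT, 10.38, 10.21 and 10.34 in DM and 11.999, 11.90 and 11.80 in TM MEFs. The DM arrays were lowest, and the TM arrays lay under but close to those of WT. The DM difference was -1.77 (SE 0.068, 3.41-fold lower, adjusted p = 6.16e-10 from limma), the TM difference was -0.18 (adjusted p = 0.0649 from limma), and TM exceeded DM by 1.59 (3.01-fold, adjusted p = 2.07e-09 from limma).

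Ccl7 and Ccl2 encode the monocyte attractants MCP-3 and MCP-1 and are neighbours on chromosome 11. Ccl7 had levels of 11.68, 11.45 and 11.55 in WT, 12.04, 11.94 and 11.83 in DM and 12.67, 12.59 and 12.46 in TM MEFs. The genotypes were ordered WT, DM, TM without overlap. Its TM difference was 1.01 (SE 0.08, 2.02-fold, adjusted p = 6.89e-07 from limma), and TM exceeded DM by 0.64 (1.55-fold, adjusted p = 5.2e-05 from limma), or by 0.58 and under the limit without DM replicate 3. In DM MEFs Ccl7 differed from WT by 0.37, under 1.5-fold. Ccl2 had levels of 12.64, 12.90 and 12.63 in WT, 13.28, 13.39 and 13.29 in DM and 13.10, 13.05 and 13.08 in TM MEFs, so the mutants lay above WT with DM highest. The DM difference of 0.60 (1.51-fold, adjusted p = 3.28e-05 from limma) was just past the limit and the TM difference of 0.36 (1.28-fold, adjusted p = 0.00227 from limma) was not, and the mutants differed by -0.24 (1.18-fold, adjusted p = 0.0251 from limma). The DM call was lost with median centring (0.53) and without WT replicate 1 (0.56), WT replicate 3 (0.55) or DM replicate 2 (0.56).

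Ccl3, which encodes the macrophage inflammatory protein MIP-1α, was dim, at 5.98, 6.23 and 6.13 in WT, 6.27, 6.06 and 6.02 in DM and 6.60, 6.66 and 6.85 in TM MEFs. The TM arrays were highest, WT and DM overlapped, and every array was below its median. TM exceeded WT by 0.59 (1.51-fold, adjusted p = 0.000205 from limma) and DM by 0.59 (1.5-fold, adjusted p = 0.000234 from limma). The call against WT was lost with median centring (0.54), with quantile normalization (0.58), without WT replicate 1 (0.53) and without TM replicate 3 (0.52), and that against DM with array weights (0.53) and without DM replicate 2 (0.56), DM replicate 3 (0.54) or TM replicate 3 (0.52). The eosinophil attractant gene Ccl11 was 7.36 to 7.46 in WT, 7.62 to 7.74 in DM and 7.37 to 7.46 in TM MEFs, a DM difference of 0.29 (1.22-fold, adjusted p = 0.00179 from limma) that was not called. The dim monocyte and macrophage attractant genes Ccl4, Ccl8, Ccl9 and Ccl12 had differences from WT between -0.06 and 0.13.

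The interferon-inducible ligands of CXCR3, which attract activated T cells, went different ways. Cxcl10 read 12.55, 12.52 and 12.55 in WT, 12.76 on each of the 3 arrays in DM and 11.57, 11.54 and 11.67 in TM MEFs. The TM arrays were lowest and the DM arrays slightly above WT, without overlap. TM MEFs lay 1.93-fold below WT (log2 difference -0.95, SE 0.054, adjusted p = 3.04e-08 from limma) and 2.24-fold below DM (log2 difference -1.17, adjusted p = 4.83e-09 from limma), and the DM difference of 0.22 was under 1.5-fold. Cxcl11 moved the opposite way in TM MEFs, with 7.05, 6.66 and 6.93 in WT, 7.61, 7.74 and 7.55 in DM and 7.73, 7.74 and 7.95 in TM MEFs. All mutant arrays exceeded all WT arrays, and it was above the array median on all TM arrays. The differences were 0.75 in DM (1.69-fold, adjusted p = 5.74e-05 from limma) and 0.92 in TM MEFs (1.9-fold, adjusted p = 1.11e-05 from limma), and RefSeq lists Cxcl11 as a transcribed pseudogene on GRCm38.p6. Cxcl9 was dim, at 6.89 to 7.08 in WT, 7.33 to 7.39 in DM and 6.81 to 7.12 in TM MEFs, and was not called.

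Of the remaining constitutive CXC ligands, Cxcl14, which encodes a chemokine of skin and stroma, was higher in TM MEFs. Its levels were 8.44, 8.58 and 8.49 in WT, 8.44, 8.47 and 8.58 in DM and 9.32, 8.89 and 9.22 in TM MEFs. All TM arrays exceeded all others, and WT and DM overlapped. The TM difference was 0.64 from WT (1.55-fold, adjusted p = 0.00022 from limma) and 0.65 from DM (1.56-fold, adjusted p = 0.000212 from limma), and without TM replicate 1 these were 0.55 and 0.56 and under the fold limit. Cxcl13, which encodes the follicle chemokine for B cells, was 6.26 to 6.41 in WT, 6.54 to 6.84 in DM and 6.60 to 6.86 in TM MEFs, with differences of 0.39 and 0.38 under the fold limit. Ccl25, which encodes the thymic and gut chemokine bound by CCR9, was bright and lower by 1.33-fold in TM MEFs (log2 difference -0.42, adjusted p = 0.000336 from limma), again short of the limit, and the dim mucosal chemokine gene Ccl28 differed from WT by 0.06 and 0.02.

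**Figure D3:**
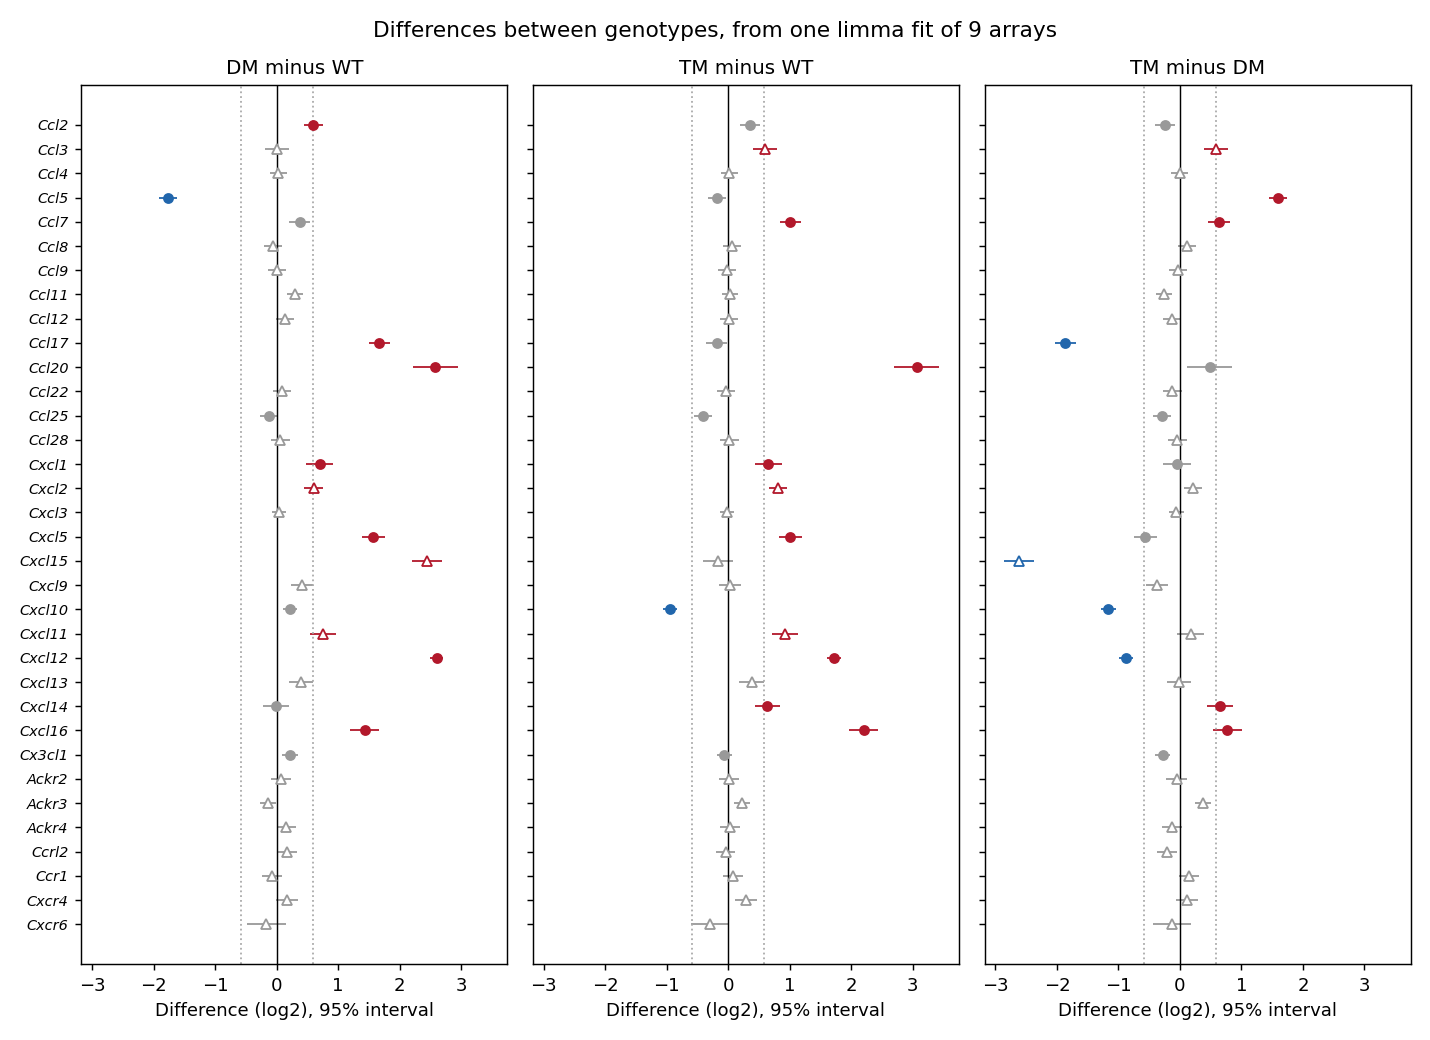
Log2 differences between genotypes for the 34 genes from 1 limma fit of 9 arrays, in 3 panels with the 95% interval as a horizontal line. Circles are bright and open triangles dim genes, red and blue mark genes called higher and lower, grey marks genes not called, and dotted lines mark 1.5-fold. The 7 receptors at the bottom are all grey, Cxcl15 and Ccl17 are red in the first panel and blue in the third, and Ccl5 is blue in the first and red in the third.

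None of the 7 receptor genes was called in any comparison by limma, and 0 passed an unadjusted p under 0.05 together with the fold limit. Without a fold limit, an unadjusted p under 0.05 was reached by 2 higher and 1 lower in DM, by 2 higher in TM, and by 1 higher and 1 lower between the mutants. Among all 19938 genes that threshold was passed by 4282 higher and 4513 lower in DM, by 3307 and 4481 in TM, and by 3709 and 4667 between the mutants. All were dim, so their transcripts may be near or under what the array can read. Ackr3, which encodes the scavenging receptor of CXCL12, was at 7.55 to 7.65 in WT, 7.40 to 7.51 in DM and 7.77 to 7.91 in TM MEFs. Its TM arrays were above those of WT and DM and above the array median, with a difference of 0.23 from WT (1.17-fold, adjusted p = 0.0117 from limma) and 0.37 from DM (1.29-fold, adjusted p = 0.00043 from limma). Cxcr4, the signalling receptor gene for CXCL12, was 6.45 to 6.73 in WT, 6.64 to 6.90 in DM and 6.86 to 6.92 in TM MEFs, with a TM difference of 0.28 (1.22-fold). The differences of Ackr2, Ackr4 and Ccrl2, classed here as atypical receptor genes, from WT lay between -0.04 and 0.17. Those of the inflammatory receptor gene Ccr1 were -0.07 and 0.07. Cxcr6, the receptor gene for CXCL16, read 6.10, 6.79 and 6.18 in WT, with 1 array above the rest, and 5.998 to 6.29 in the mutants.

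**Figure D4:**
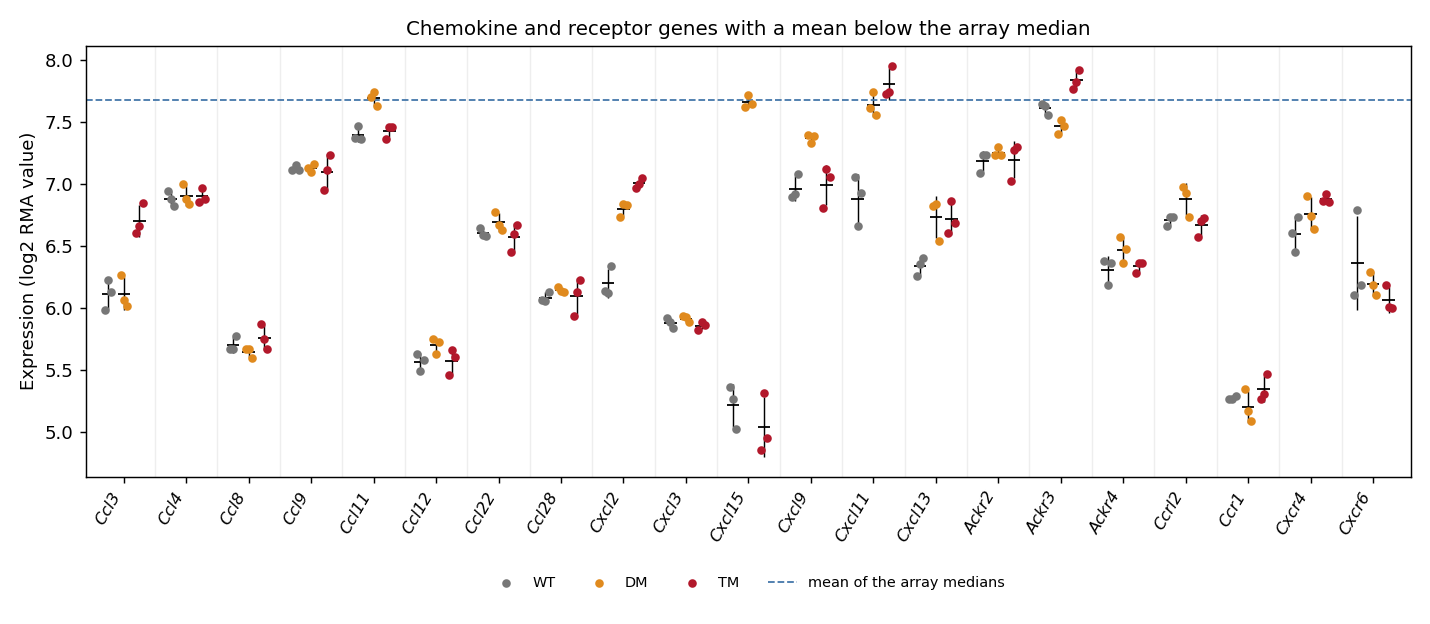
Log2 expression of the 21 chemokine and receptor genes with a mean below the array median by genotype, with WT in grey, DM in orange and TM in red. Each point is 1 array, a horizontal mark gives the mean and a vertical bar the SD (n = 3), and the dashed line is the mean of the 9 array medians. Cxcl15 is at 7.62 to 7.71 in DM and at 5.36 or less in WT and TM MEFs, Cxcl2 and Cxcl11 are higher in both mutants, and most other genes overlap between genotypes.

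Beyond the members, 24 other chemokines and receptors were measured, of which only Ppbp and Cx3cr1 were bright, and 0 were higher and 1 lower in DM, 0 were called in TM against WT, and 1 was higher in TM than in DM MEFs. Both calls were Ppbp, a further CXCR2 ligand gene in the cluster on chromosome 5, which was 9.03 to 9.20 in WT, 6.59 to 7.35 in DM and 8.57 to 8.67 in TM MEFs. The receptor genes for the ligands that rose, Cxcr2 for the ELR group (5.47 in WT, 5.40 in DM and 5.38 in TM MEFs) and Ccr6 for Ccl20 (6.43, 6.55 and 6.20), were dim and not called.

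Some neighbouring genes changed alike and others did not. In the RefSeq order on chromosome 5, Cxcl5, Ppbp, Pf4, Cxcl3, Cxcl15, Cxcl1 and Cxcl2 follow each other, and their log2 differences in DM MEFs were 1.57, -2.25, 0.03, 0.04, 2.44, 0.70 and 0.60. Cxcl15, Cxcl1 and Cxcl2 were all higher, whereas Ppbp was lower beside the higher Cxcl5, and Pf4 and Cxcl3 were not called. In the cluster of Ccl2, Ccl7, Ccl11, Ccl12 and Ccl8 on chromosome 11 the TM differences were 0.36, 1.01, 0.03, 0.01 and 0.06. Further along it, Ccl5 fell by 1.77 in DM MEFs while its neighbour Ccl9 differed by 0.00.

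Regulators of inflammatory chemokine genes were read from a list of NF-kB factors and their inhibitors, of which 18 were measured. The list mixes both kinds, so its counts give no direction of NF-kB activity. Against WT 4 were higher in DM and 2 in TM MEFs with 0 lower in either, and 4 were lower in TM than in DM. Ikbkg, which encodes the regulatory subunit NEMO of the IkB kinase and is X-linked, was higher by 1.37 in DM MEFs, Bcl3, a nuclear IkB protein gene, by 1.14, and Tnip1, which encodes a binding partner of the inhibitor A20, by 0.81. Ikbke, which encodes an IkB-related kinase, was higher in both mutants, by 0.73 in DM and 0.62 in TM MEFs. Nfkbiz, the gene of another nuclear IkB protein, was higher by 0.74 in TM MEFs and had a difference of 0.42, under 1.5-fold, in DM. Rela, which encodes the NF-kB subunit p65, had differences of -0.12 and 0.07 and was not called.

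Among 21 cytokine and toll-like receptor input genes, 4 were higher in DM and 2 in TM MEFs against WT and 0 were lower. Tlr3, which encodes a sensor of double-stranded RNA, was higher by 1.56 in DM and 1.16 in TM MEFs, Tnfrsf1b, a TNF receptor gene, by 1.00 in DM, and Ifnar2, which encodes an interferon receptor chain, by 0.60 in DM and 0.65 in TM MEFs. Irf1, an interferon response factor gene, was 0.75 lower in TM than in DM (log2 difference -0.75). The cytokine genes Tnf, Il1a and Il1b were dim and not called. These counts are read beside the shares of all genes given above, and no test set a list against other genes.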

How the data were processed

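Total RNA of WT, DM and TM MEFs (3 arrays of each) was hybridised to Affymetrix Gene ST arrays. The authors deposited log2 values for every probe set of each array. Their processing notes name RMA, with no version, which corrects background, normalizes between arrays and summarises probes. The methods also name GCOS and GeneSpring with RMA and PLIER. PLIER values and the genome build of the array files were not used here or are not given in the sources used here. Because RMA aligns the arrays, a shift common to most genes would not show.

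Of 35556 probe sets 21789 had 1 symbol, 1621 several and 12146 none in the platform annotation. The 21698 identifiers found in RefSeq's GRCm38.p6 table changed 0 symbols. The brightest probe set was kept for the 999 genes with several, leaving 19938 genes. All arrays entered 1 limma fit (limma 3.58.1, R 4.3.3, 6 residual degrees of freedom), tested first on simulated data. Differences between genotypes were taken within a gene. Levels of different genes were set together in the split by brightness and in the summed lists, where bright probe sets weigh most. Correlations across genes were 0.997 to 0.9988 within and 0.9707 to 0.9795 between genotypes. Identical values on 2 or more arrays occur in 15 of the 34 genes, but in 0 of them across all 3 arrays of a genotype.

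The members and the other gene lists were chosen with earlier results of these data known. All 34 genes, the mutated genes, the called list genes with the largest changes (up to 3 per list and comparison) and defining markers could be named, and neighbours in a cluster, Xist, Rela, Cxcr2, Ccr6, Tnf, Il1a and Il1b were added after their values were seen. Alternatives were other thresholds, the methods' t-test, fits of 6 arrays, the replicate number as a block, 3 scalings, a filter on dim genes, other variance settings, the mean over probe sets, and leaving out each array.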

Additional observations from a re-analysis of the deposited data

How the results depend on the processing

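Of the 31 calls of member genes, 23 kept their side of the threshold under every alternative except the 2-fold limit, among the alternatives in which the gene was tested, and 8 were lost under at least 1. No difference changed sign among the called genes. With no fold limit 16 genes were higher in DM against WT, 14 were higher and 2 lower in TM against WT, and 8 were higher and 11 lower in TM against DM, where of all 19938 genes 3398, 2757, 3581, 3070 and 3280 passed in the same order. Over 2-fold, 6 were higher in DM and 5 higher and 0 lower in TM against WT, and 1 was higher in TM against DM. The share of all genes called over 2-fold was not read, so these counts too are a description. Leaving out 1 array gave 8 to 10 higher and 1 lower in DM, 9 to 10 higher and 1 lower in TM against WT, and 3 to 6 higher and 4 to 5 lower in TM against DM, where the 3 came without DM replicate 3. The filter on dim genes kept 11526 genes, those above the array median on at least 3 arrays. It left 15 members to test, with 8 higher in each mutant against WT. Of these, Ccl20, Cxcl11 and Cxcl16 passed the filter only through mutant arrays. Their higher levels there are thus part of what kept them, and the count is a description. The share of the kept genes that was called was not read. Other definitions of brightness gave 13 to 15 bright genes, the extra ones being Cxcl11 and Ackr3. With the replicate block, the counts were 10 higher and 1 lower in each mutant and 5 and 4 between the mutants, as without it. Arrays of the same number did not deviate together, with correlations of -0.13 to 0.03 for DM against WT, -0.24 to -0.15 for TM against WT and -0.06 to 0.17 for TM against DM, so the numbers were not taken to pair the samples. The cause of the lost calls was not tested. Signal over background limits the dim genes, for which no detection call was analysed here.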

Other observations

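Some genes that act downstream of chemokine receptors differed between the genotypes. Of 25 measured receptor coupling genes, 3 were higher (12%) and 5 lower (20%) in DM against WT, beside 5.28% and 5.67% of all genes. In TM MEFs 3 were higher (12%) and 1 lower (4%) against WT, beside 5.59% and 3.56%. Between the mutants 2 were higher (8%) and 4 lower (16%) in TM, beside 4.68% and 3.61%. Of the 25 genes 19 were bright, and among bright genes of all kinds the shares were 7.51% and 9.13% in DM and 7.34% and 5.47% in TM. No test set the list against other genes, and the genes named here were picked for their large changes. Gnai1, which encodes an inhibitory G protein subunit, was 6.63 to 6.995 in WT, 11.06 to 11.21 in DM and 9.21 to 9.39 in TM MEFs, a log2 difference of 4.25 in DM and 2.47 in TM. Elmo1, which encodes a partner of DOCK proteins in Rac activation, was higher by 2.88 in DM and 1.38 in TM MEFs. The gene of the signalling inhibitor RGS16 was lower in DM and higher in TM MEFs, with 9.12 to 9.28 in WT, 8.12 to 8.33 in DM and 11.25 to 11.32 in TM. Rgs2 had a log2 difference of -1.87 in DM and -0.15 in TM MEFs, and Ptk2b, which encodes a calcium-regulated focal adhesion kinase, of -1.16 and -1.76.

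Of 20 genes that process chemokines or present them on cell surfaces and matrix, 4 were higher (20%) and 4 lower (20%) in DM against WT. In TM against WT 0 were higher and 1 was lower (5%), and in TM against DM 2 were higher (10%) and 1 lower (5%). These are read beside the same shares of all genes, and no test set this list against other genes. The heparan sulfate proteoglycan genes Gpc1 and Sdc2 had log2 differences of -1.63 and -1.12 in DM MEFs, and Gpc1 of -1.35 in TM MEFs. Tnfaip6, which encodes the chemokine-binding protein TSG-6, was 0.89 higher in TM than in DM MEFs. Against WT it was lower in DM MEFs (log2 difference -0.73) and not called in TM MEFs (0.17). Dpp4, the gene of a protease that trims CXCL12 and other chemokines, was dim and not called.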
